A study of Sus scrofa with 3 samples.

Results

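The liver of castrated male pigs (CM) was compared with that of intact male pigs (IM), both on a diet high in fat and cholesterol (HFC diet), over all mRNA features and by liver function. All animals were Chinese Wuzhishan pigs, a miniature breed, given by the labels as 6 to 7 months old, and there was no group on a normal diet. The study's methods give this as the age when the pigs were obtained. Weeks of acclimation and then of the HFC diet followed, so the pigs were older at sampling. Intact pigs had a sham operation when the others were castrated. By the labels, RNA of 3 pigs was pooled in equal amounts for 1 library of each group, whereas the study's methods describe larger groups and do not say how many pigs entered a pool. Each group thus had 1 library, so nothing here was replicated and differences among the pooled pigs cannot be seen. A further library, from castrated pigs given testosterone replacement (CMT) on the same diet, is used here for side values only. The deposited values are labelled FPKM, in name read numbers per kilobase of transcript and per unit of library size. Their library divisors were not proportional to the reads recovered from them, as described below. A feature entered the comparison when it was of type mRNA and reached an FPKM of 1 in both libraries. This gave 16011 of the 22945 mRNA features, out of 34579 features of all types. Of the rest, 622 reached the minimum in IM alone, 625 in CM alone and 5687 in neither. At the edge of the minimum, RGSL1 lay just inside at 1.0007 (IM) and 1.29 (CM), and GBX1 just outside at 0.997 (IM) and 1.28 (CM).

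The liver makes most plasma proteins, clears drugs and steroids, burns and exports fat, turns amino acids into glucose and urea, and disposes of cholesterol as bile acids. Several of these functions depend on sex hormones, partly through the growth hormone axis, and hepatic cytochrome P450 enzymes are the best known case. In fatty liver disease, lipid overload is often accompanied by immune activation and by hepatocyte death and renewal. The comparison asks what the loss of the testes does to the liver transcriptome when the diet already drives fat into the liver.

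A feature was counted as changed when its FPKM differed at least 1.5-fold between the libraries, the fold the study used. By this count 1848 features (11.5%) were higher and 1960 (12.2%) lower in CM, together 23.8%. At 2-fold the counts were 777 (4.85%) and 788 (4.92%), and at 4-fold 146 and 145. On the log2 scale, the CM to IM ratio had a median of -0.019 and a standard deviation of 0.66 over features. Read numbers could be recovered for 15090 members (94.2%), and they sum to 32197628 over all features in IM and 36126730 in CM. On a transcript of 1 kb, 3 reads correspond to an FPKM of 1.20 in IM and 0.877 in CM. The 95% exact binomial interval of the ratio, which covers counting error only, left out 1 for 1302 of the higher and 1428 of the lower features.

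The balance of the directions depended on the scale. The deposited values were scaled by library divisors in a ratio of 1.36 (CM to IM), while the recovered reads stood in a ratio of 1.12, and scaling to the reads would add 0.28 to every log2 ratio. The counts were then 3596 higher (22.5%) and 1053 lower (6.58%), and the median of all features was 0.26. Lists of genes are therefore described against the median of all features, which moves with them. The lean toward lower values also grew with the level of a feature. In the lowest decile of mean FPKM the median log2 ratio was 0.013, with 24.1% of features higher and 20.7% lower. In the highest decile, from an FPKM of 454 upward, it was -0.15, with 5.31% higher and 19.1% lower. Transcript length made little difference, with medians from -0.034 to 0.0044 over the deciles of recovered length.

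**Figure D1:**
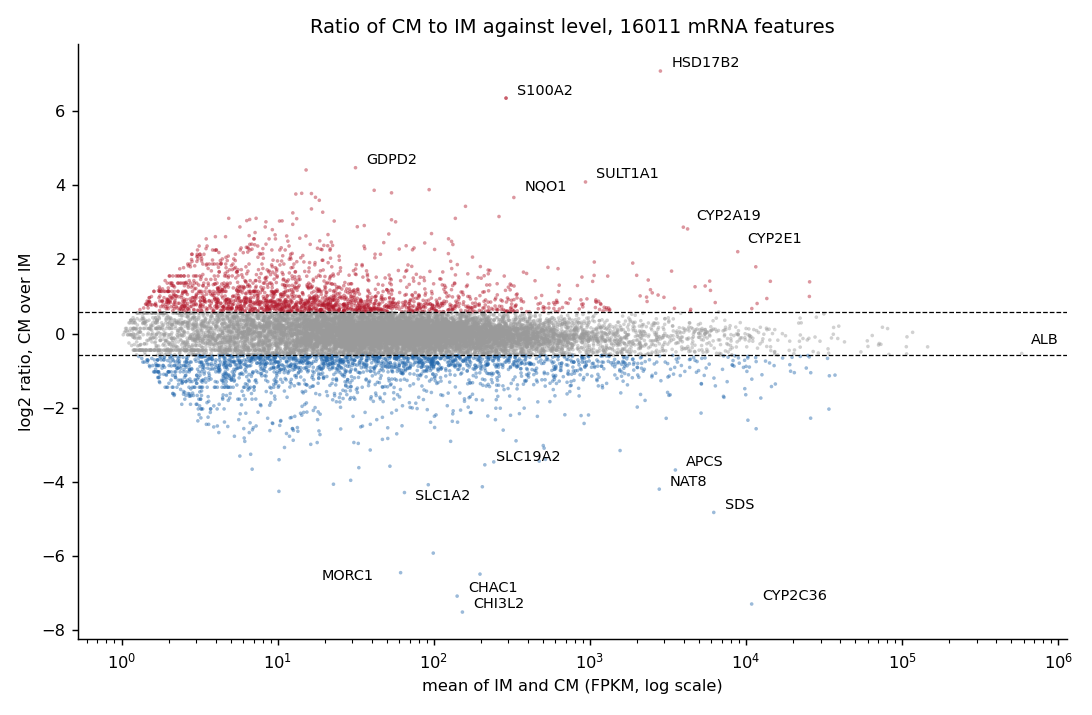
Each point is 1 of the 16011 mRNA features, with the mean FPKM of IM and CM on a logarithmic horizontal axis and the log2 ratio of CM to IM on the vertical axis; dashed lines mark 1.5-fold, red points are higher and blue points lower in CM. HSD17B2 and CYP2C36 lie at opposite ends, with log2 ratios of 7.08 and -7.29, while ALB, the most abundant feature, lies at -0.54.

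The largest rise was in a steroid enzyme. HSD17B2, which oxidizes testosterone and estradiol to less active ketones, had an FPKM of 41.5 (IM), 5614 (CM) and 7.30 (CMT), 135-fold higher in CM (95% interval, 99.9 to 188). It rested on 42 and 7738 recovered reads. SULT1A1, a sulfotransferase of phenols, followed the same order at 104 (IM), 1769.7 (CM) and 18.1 (CMT), and was 17.01-fold higher in CM (95% interval, 14.9 to 19.4). NQO1, a quinone reductase of the antioxidant response, was at 47.5 (IM), 604 (CM) and 39.9 (CMT), 12.7-fold higher in CM (95% interval, 10.4 to 15.7). In all 3 genes CM stood apart, with IM and CMT on the same side far below it. Reads of SULT1A1 may be shared with other members of its family, so its value is less certain than that of HSD17B2.

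The other rises described here from the 12 largest were of genes with little expression in the intact liver. S100A2, a calcium-binding protein, went from 7.03 in IM to 573 in CM, GDPD2, a phosphodiesterase, from 2.72 in IM to 60.3 in CM, and SCGB1A1, a secretoglobin best known from airway epithelium, from 11.9 in IM to 175 in CM. PBK, a mitotic kinase, belongs to the proliferation genes described below. TMEM52B, NEURL3, TREH, which splits the sugar trehalose, and PDZK1IP1 were also among them. In IM the 12 genes were between an FPKM of 1.79 and 104, and NEURL3 rested on only 4 and 74 reads in IM and CM.

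The largest falls included 4 abundant hepatocyte products. CYP2C36, a cytochrome P450 of the 2C subfamily, had an FPKM of 21594 (IM), 138 (CM) and 39447 (CMT) and was 157-fold lower in CM (95% interval, 146 to 169). SDS, serine dehydratase, which sends serine to pyruvate, was at 12000.3 (IM), 424 (CM) and 4697 (CMT), 28.3-fold lower in CM (95% interval, 27.2 to 29.4). NAT8, an acetyltransferase of the mercapturic acid pathway, was at 5274 (IM), 288 (CM) and 5515 (CMT). APCS, the serum amyloid P component, was at 6542 (IM), 511 (CM) and 8867 (CMT). All 4 were lowest in CM. Reads may be shared between CYP2C genes of similar sequence, which applies to every CYP2C value given here.

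Less abundant genes fell as far. CHAC1, which degrades glutathione and is induced in the integrated stress response, went from 280.0 in IM to 2.07 in CM, with 271 in CMT. CHI3L2, a chitinase-like protein, went from 303 in IM to 1.67 in CM but was listed at 0 in CMT, so that IM alone was high. SLC1A2, a glutamate transporter of pericentral hepatocytes, was 19.5-fold lower in CM (95% interval, 15.4 to 25.1), and SLC19A2, a thiamine transporter, 11.6-fold lower. MORC1, TMEM52, SPINK5 and DMBX1 completed the 12. Their CM values lay between an FPKM of 1.01 and 8.10, on 7 to 32 reads, so the size of their fall is poorly determined.

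**Figure D2:**
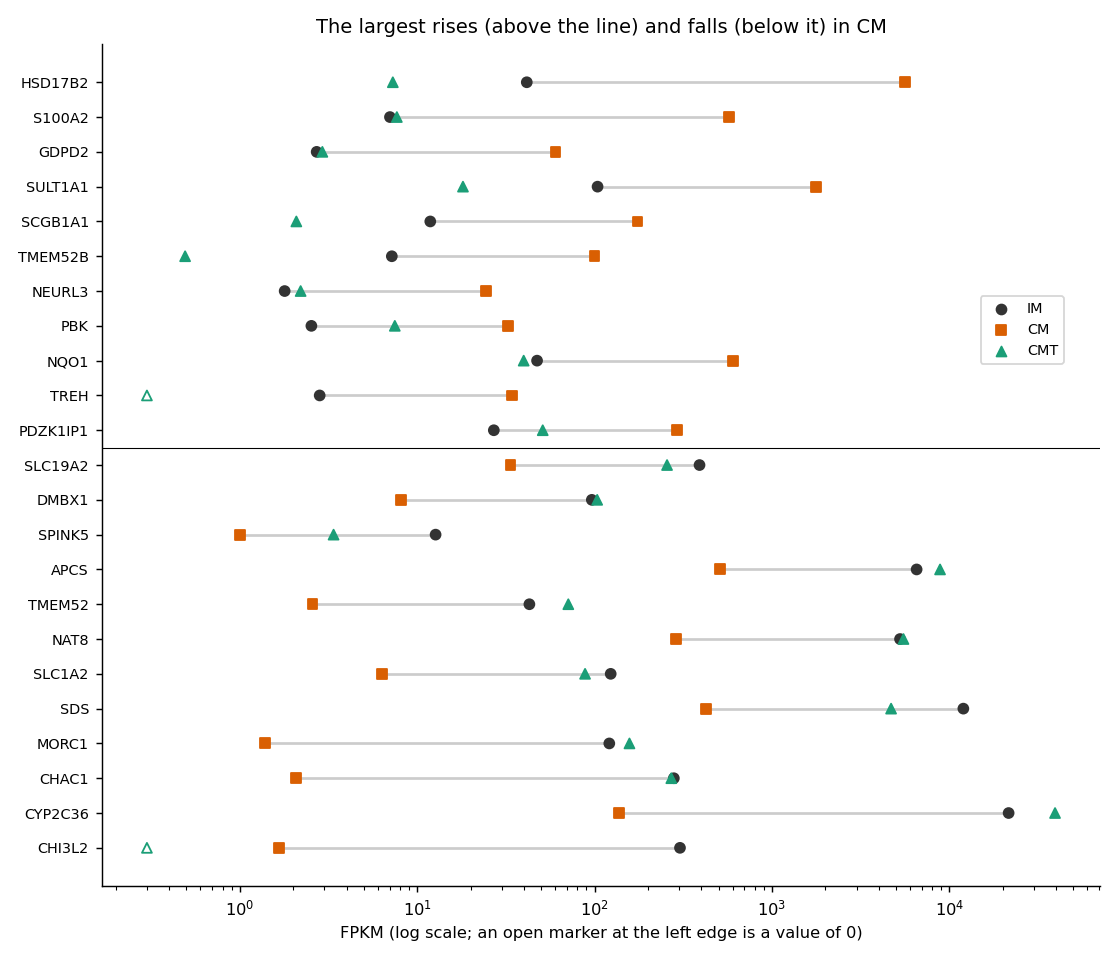
FPKM of 11 of the 12 largest rises (above the line) and of the 12 largest falls (below it) in CM against IM, on a logarithmic horizontal axis, with 1 marker for each of the libraries IM, CM and CMT; an open marker at the left edge is a value of 0. For 10 of the 12 falls CMT lies far to the right of CM, the exceptions being CHI3L2, at 0 in CMT, and SPINK5, at 3.38.

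To see which functions moved, 62 lists were written from general gene function, and 2135 members of the comparison stood in at least 1 of them. The median log2 ratio was at least 0.2 below that of all features in 23 lists and at least 0.2 above it in 7. The 7 were mitotic genes, DNA replication, interferon-stimulated genes, both MHC lists, cytoskeletal genes and pericentral hepatocyte genes. The lists furthest below held hepatocyte work, namely fatty acid oxidation, ketone bodies, bile acids, acute phase proteins, hepatokines and plasma carriers, although the bile acid median is nearer 0 without 2 genes that the published results name, as given below. With scaling to reads, 22 of the 38 medians below 0 would turn positive and 16 would stay below 0. The scaling does not alter the order of the lists or their distance to the median of all features.

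**Figure D3:**
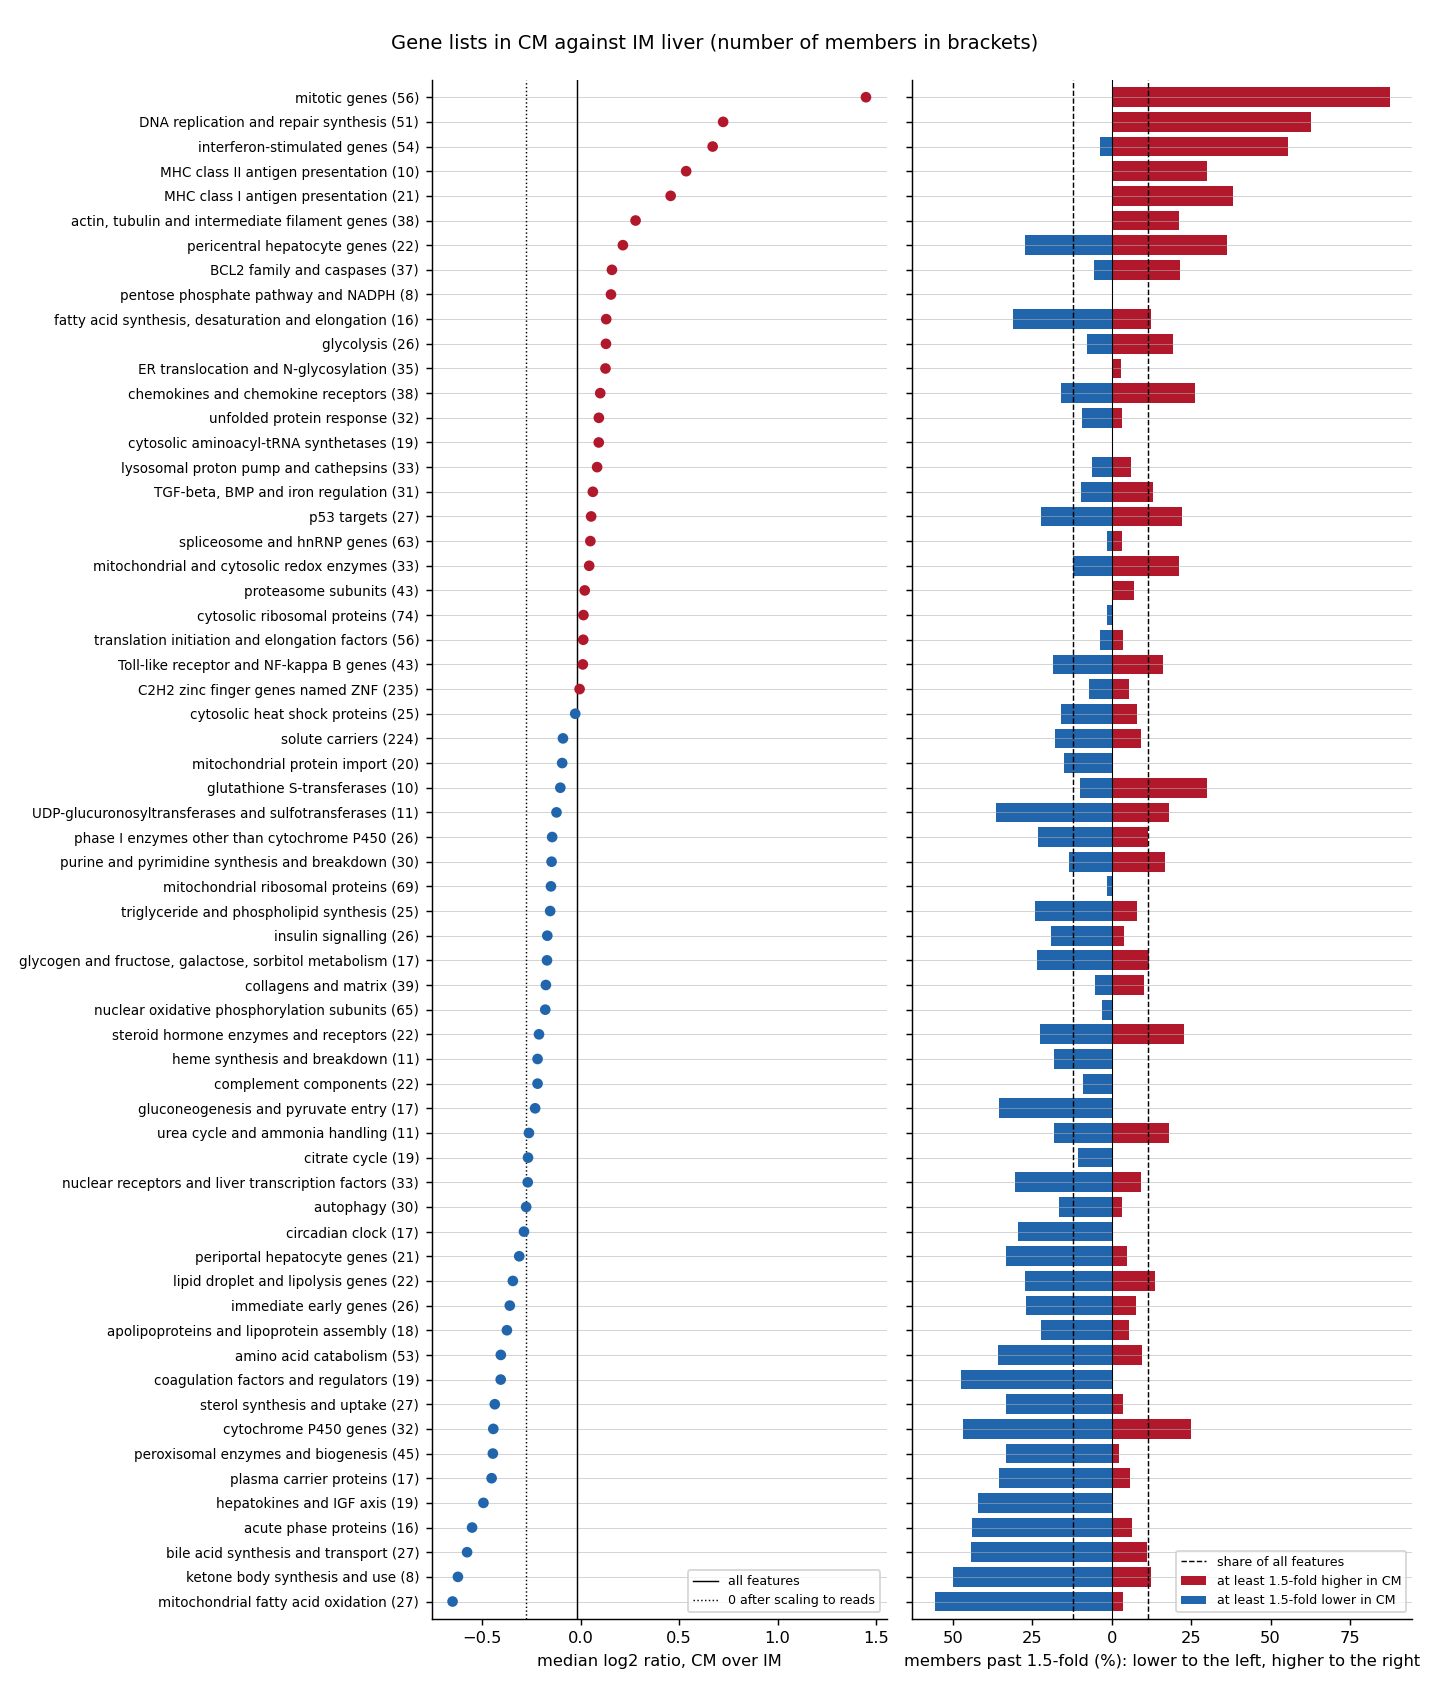
Left, the median log2 ratio (CM over IM) of each of the 62 gene lists (number of members in brackets), with a solid line at the median of all features and a dotted line at -0.28, the value that scaling to reads would turn into 0. Right, the share of members at least 1.5-fold higher (red) or lower (blue) in CM, with dashed lines at the shares of all features, 11.5% and 12.2%; mitotic genes stand apart with 87.5% higher.

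Genes of cell division had the largest share of higher members among the 62 lists. Of 56 mitotic genes, 49 were at least 1.5-fold higher and none lower, with a median log2 ratio of 1.45, or 0.71 with a minimum FPKM of 10, which leaves out many of them. CDK1, the kinase that drives entry into mitosis, had an FPKM of 3.64 (IM), 35.2 (CM) and 9.71 (CMT). TTK and BUB1B, of the spindle checkpoint, had log2 ratios of 3.11 and 2.88, and NEK2, a centrosome kinase, one of 3.11. These transcripts were scarce, holding 0.0125% of the summed mRNA FPKM in IM and 0.0266% in CM, where the total was lower. Their own summed FPKM in CM was 1.79 times that in IM. A low level widens the counting error, and still the interval lay above 1 for 49 of them. In addition, 7 listed mitotic genes were below the FPKM minimum.

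DNA replication moved in the same direction. Of 51 genes, 32 were higher and none lower, with a median of 0.72. TYMS, which makes thymidylate, went from 52.8 in IM to 470.4 in CM, and MCM3, of the replicative helicase, from 5.71 in IM to 36.3 in CM. MCM10 and POLE, which start and extend the leading strand, had log2 ratios of 2.55 and 3.05. RRM2, the regulated subunit of ribonucleotide reductase, counted among the nucleotide genes, was 4.95-fold higher in CM (95% interval, 3.54 to 7.09). The nucleotide list as a whole was mixed, with 5 of 30 genes higher (16.7%) and 4 lower (13.3%), and a highest log2 ratio of 3.16. UOX, uric acid oxidase, and ATIC and PPAT, of purine synthesis, were among the 4, with log2 ratios of -1.04, -0.82 and -0.91. With a minimum FPKM of 10, which leaves out many replication genes, the median of the replication list was 0.43.

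Among the immune lists, interferon-stimulated genes had the largest share of higher members. Of 54 genes, 30 were higher and 2 lower, with a median of 0.67. Their summed FPKM in CM was 1.86 times that in IM. As a share of the total, which was lower in CM, it went from 0.378% to 0.837%. ISG15, a ubiquitin-like modifier, had an FPKM of 570.1 (IM), 1512 (CM) and 606 (CMT). UBE2L6, the enzyme that helps attach it, had one of 286 (IM), 963 (CM) and 239.8 (CMT). ISG20, an exonuclease, was 8.62-fold higher in CM (95% interval, 6.52 to 11.6), and OASL, a relative of the oligoadenylate synthetases, went from 7.25 in IM to 37.7 in CM. SAMHD1, which depletes nucleotides, and IRF3, a transcription factor that starts the interferon response, were the 2 that were lower, at -0.80 and -0.72 on the log2 scale.

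Antigen presentation leaned the same way. In the class I list 8 of 21 genes were higher and none lower (median 0.46). SLA-1, a classical class I heavy chain of the pig, had an FPKM of 7826 (IM), 20796 (CM) and 6203 (CMT), although reads can be shared among SLA genes. PSMB9 and PSMB8, the catalytic subunits that turn a proteasome into an immunoproteasome, were at 1.49 and 1.05 on the log2 scale, and TAP1, the peptide transporter, at 0.91. Class II genes had a median of 0.54, with 3 of 10 higher, among them CIITA, the master regulator of the class, with a log2 ratio of 0.76. Beside these lists, 18 markers of T and NK cells had a summed FPKM of 929 in IM and 1224 in CM, and 15 macrophage markers one of 21856 and 20541. In bulk tissue a change in the number of cells of a type cannot be told apart from a change in RNA per cell.

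Inflammatory signalling did not move as 1 group. Of 38 chemokines and receptors, 10 were higher (26.3%) and 6 lower (15.8%), with a median of 0.099. Of 43 Toll-like receptor and NF-kappa B genes 7 were higher (16.3%) and 8 lower (18.6%), with a median of 0.011. Over all features the shares were 11.5% and 12.2%. CXCL10, a chemokine that interferon induces, rose from 1582 in IM to 5085 in CM. TNF and IL1B, the early cytokines of macrophages, fell from 106 in IM to 18.95 in CM and from 30.02 in IM to 6.01 in CM. CCL3L1 and CCL4, macrophage chemokines, had log2 ratios of -1.51 and -1.18, and reads of such near copies can be split between genes. LY96, the partner of TLR4, and RELB, of the noncanonical NF-kappa B pathway, were among the higher, at 0.92 and 0.89. CXCL10 and most interferon-stimulated genes thus lay above the median of all features, and TNF and IL1B below it.

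Secreted liver proteins lay low in CM. None of 19 coagulation genes was at least 1.5-fold higher and 9 were lower, with a median of -0.41. Their summed FPKM in CM was 0.597 times that in IM, and their share of all summed FPKM went from 3.46% to 2.46%. The fibrinogen chains moved alike. FGA had an FPKM of 50861 (IM), 23414 (CM) and 73313 (CMT), FGB one of 46989 (IM), 21358 (CM) and 67812 (CMT) and FGG one of 31880.2 (IM), 16745 (CM) and 46457 (CMT). KNG1, kininogen, and F12, the contact factor, were at -0.91 and -0.86 on the log2 scale. With scaling to reads 4 of the 9 stayed past 1.5-fold, a loss shared with all features.

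Among acute phase proteins, which the liver secretes in inflammation, 7 of 16 were lower and 1 was higher (median -0.55). ITIH4, a major acute phase protein of the pig, had an FPKM of 10947 (IM), 3391 (CM) and 16428 (CMT) and was 3.23-fold lower in CM (95% interval, 3.18 to 3.28). HAMP, hepcidin, which blocks iron export, went from 4028 in IM to 1669 in CM, and CRP, C-reactive protein, from 1531 in IM to 832 in CM. SAA3, a serum amyloid A protein, was the exception within this list at 1493 in IM and 3391 in CM. Of 17 plasma carriers 6 were lower and 1 was higher (median -0.45), with AFM, a vitamin E carrier, at -1.17 and ORM1, orosomucoid, at 0.65. ORM1, for which no reads were recovered, is also an acute phase protein but was counted here as a carrier. With scaling to reads 1 carrier was lower and 1 higher (median -0.17). Complement was closer to all features, with 2 of 22 lower and a median of -0.22. Since secreted proteins are abundant, their medians were also taken against features of the same level. With the median of each level decile subtracted they were -0.42 for acute phase proteins, -0.30 for carriers and -0.25 for coagulation genes.

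Cytochrome P450 genes moved strongly in both directions. Of 32 genes, 15 were lower and 8 higher, together far above the 23.8% of all features, with a median of -0.44. The lean to lower values rested on genes without recovered reads, since among the 22 with reads 7 were lower and 8 higher (median -0.059), with an interval that left out 1 for 6 and 7 of them. CYP2C33 and CYP2C49, given below, are among those without reads. CYP2A19 and CYP2E1, which in pigs break down skatole, the compound of boar taint, were the 2 largest rises, from 1046 in IM to 7399 in CM and from 3148 in IM to 14546 in CM. CYP1A1, a target of the aryl hydrocarbon receptor, was 2.97-fold higher in CM (95% interval, 2.82 to 3.12), while the receptor itself, AHR, for which no reads were recovered, was 3.14-fold lower in CM. On the lower side, CYP2C33 went from 42997 in IM to 8849 in CM, CYP2C49 from 19131 in IM to 5737 in CM and CYP3A46 from 54596 in IM to 13314 in CM. CYP3A22, the most abundant P450, stayed within 1.5-fold at 70322 in IM and 79169 in CM. In CMT the same genes split, since CYP2C33 and CYP2C49 were at 30883 and 21196, near IM, and CYP2E1 at 54.4, below both other libraries.

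Other drug enzymes also held genes of both directions, with smaller shares past 1.5-fold than the cytochrome P450 genes. FMO1, a flavin monooxygenase, went from 14466 in IM to 5167 in CM and FMO5 from 848 in IM to 1487 in CM, in opposite directions. Of 26 further phase I enzymes 6 were lower (23.1%) and 3 higher (11.5%), with a median of -0.15. Of 11 UDP-glucuronosyltransferases and sulfotransferases 4 were lower (36.4%) and 2 higher (18.2%), with a median of -0.12. The shares of all features were 12.2% lower and 11.5% higher. SULT1C2, a sulfotransferase, had a log2 ratio of -1.86, and UGT1A10, whose gene shares exons with other UGT1A forms, went from 5.58 in IM to 31.6 in CM. Glutathione S-transferases were higher in 3 of 10 and lower in 1, MGST3, a microsomal enzyme (-1.13). Among 22 steroid genes 5 were higher and 5 lower. HSD17B4, a peroxisomal enzyme, went from 4717 in IM to 1572 in CM, and SRD5A1, which reduces testosterone to dihydrotestosterone, from 1.57 in IM to 4.23 in CM at a very low level.

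Hormone and growth signals from the liver leaned lower. Of 19 hepatokine and IGF genes 8 were lower and none higher (median -0.49). SOCS2, a feedback inhibitor that growth hormone induces, had an FPKM of 578 (IM), 129 (CM) and 214 (CMT) and was 4.47-fold lower in CM (95% interval, 4.17 to 4.79). IGF1 went from 59.4 in IM to 32.6 in CM and IGFALS, which stabilizes it in plasma, from 728 in IM to 344 in CM. FGF21, a fasting hormone, went from 34.8 in IM to 11.4 in CM. IGFBP1, an insulin-suppressed binding protein, fell from 17280.5 in IM to 8005 in CM.

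Of 33 nuclear receptors and liver transcription factors, 10 were lower and 3 higher (median -0.27, or 0.011 with scaling to reads). RORA, a receptor with circadian targets, was 4.06-fold lower in CM (95% interval, 3.59 to 4.60). The forkhead factors parted, with FOXA2 at 174 in IM and 54.6 in CM and FOXA3 at 59.6 in IM and 201 in CM. CEBPB, a factor of the acute phase and of gluconeogenesis, was 2.61-fold lower in CM (95% interval, 2.37 to 2.86), and PPARG, the adipogenic receptor, 2.13-fold higher in CM (95% interval, 1.28 to 3.69) at a low level. NR0B2, which represses bile acid synthesis, was 2.16-fold lower in CM (95% interval, 1.95 to 2.40). Clock genes were lower in 5 of 17 and higher in none, among them PER2 at 123 in IM and 37.4 in CM and NFIL3 at 725 in IM and 202 in CM. With scaling to reads 4 clock genes were lower and 3 higher (median -0.0080). The hour of sampling was not given for single groups in the sources used here. Immediate early genes, which respond within minutes to stimuli, were lower in 7 of 26 and higher in 2, with MYC at 504 in IM and 179 in CM, EGR1 at 417 in IM and 147 in CM and EGR3 at 1.18 in IM and 4.18 in CM. With scaling to reads 6 of the 26 were lower and 5 higher.

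Amino acid catabolism was lower in 19 of 53 genes and higher in 5 (median -0.41). HAL, which opens histidine breakdown, went from 315 in IM to 118 in CM, and BCKDHA, the gate of branched-chain amino acid oxidation, from 1608 in IM to 351 in CM. GNMT, which consumes methyl groups, was 3.17-fold lower in CM (95% interval, 3.08 to 3.27), and OAT, of ornithine use, 3.21-fold lower in CM (95% interval, 3.08 to 3.34). The higher genes were CSAD, of taurine synthesis, GPT2, ACMSD, KYNU and GLDC, with log2 ratios from 0.82 to 1.52. With scaling to reads 14 genes were lower and 6 higher. In the list of the urea cycle and ammonia handling 9 of 11 genes lay below 0 (median -0.26, or 0.017 with scaling to reads). Past 1.5-fold, 2 were lower and 2 higher, 18.2% each, against 12.2% and 11.5% of all features. OTC, which makes citrulline, went from 4534 in IM to 2874 in CM. NAGS, which makes the activator of CPS1, went from 396 in IM to 695 in CM. CPS1 itself was at 3664 in IM and 3618 in CM. GLUL, glutamine synthetase of pericentral cells, went from 1789 in IM to 3677 in CM.

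In carbohydrate metabolism the release of glucose leaned lower. None of 17 gluconeogenesis genes was higher and 6 were lower (median -0.23, or 0.049 with scaling to reads). PC, pyruvate carboxylase, went from 2199 in IM to 991 in CM, and SLC37A4, the glucose 6-phosphate transporter, from 2769 in IM to 1277 in CM. Among 26 glycolysis genes 5 were higher and 2 lower. PFKFB3, which makes an activator of glycolysis, rose from 31.5 in IM to 103 in CM. GYS2, the liver glycogen synthase, was 2.61-fold lower in CM (95% interval, 2.54 to 2.68), while PPP1R3C, which targets the phosphatase that activates it, was 2.78-fold higher in CM (95% interval, 2.60 to 2.97). SORD, of the sorbitol pathway, fell from 21212 in IM to 7887 in CM.

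Fatty acid oxidation in mitochondria had the lowest median of the 62 lists, -0.65, with 15 of 27 genes lower and 1 higher. Without the 4 members that appear by name in the published results the median was -0.50. ACAD8, of valine breakdown, went from 599 in IM to 299 in CM, and ACSM5, which activates medium chains, from 642 in IM to 369 in CM. Most falls were modest, so that with scaling to reads 4 of the 15 stayed past 1.5-fold. ACAA2, the last thiolase of the cycle, was the exception at 1004 (IM), 2982 (CM) and 99.4 (CMT). Of 8 genes of ketone body synthesis and use 4 were lower and 1 higher (median -0.62). With scaling to reads 2 of the 8 were lower and 2 higher (median -0.34). BDH1, which interconverts the ketone bodies, had a log2 ratio of -1.26.

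Peroxisomal genes were lower in 15 of 45 and higher in 1 (median -0.45). The largest falls were in enzymes of lipid breakdown. CROT, which exports shortened chains as carnitine esters, had an FPKM of 2805 (IM), 315 (CM) and 4099 (CMT) and was 8.90-fold lower in CM (95% interval, 8.58 to 9.23). AMACR, which prepares branched chains and bile acid precursors, went from 3505 in IM to 1006 in CM, and PHYH, of phytanic acid breakdown, from 8677 in IM to 3779 in CM. The import and biogenesis factors differed, since of 16 members with PEX symbols 2 were lower and 1 was higher.

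Fat synthesis and storage were mixed. Of 16 genes of fatty acid synthesis 5 were lower and 2 higher (median 0.13). ACACB, a carboxylase that makes malonyl-CoA at mitochondria, went from 15.3 in IM to 2.50 in CM, and FASN, the synthase, went from 318 in IM to 198 in CM. SCD, the desaturase, rose from 788 in IM to 1414 in CM. In triglyceride synthesis LPIN1, a phosphatidate phosphatase without recovered reads, was 5.24-fold lower in CM and AGPAT9, of the first acylation step, 3.24-fold higher in CM (95% interval, 2.62 to 4.04). On the lipid droplet PLIN4 rose from 11.2 in IM to 34.1 in CM and PNPLA3, a lipase tied to fatty liver, from 3.78 in IM to 9.34 in CM, while PLIN3, CIDEA and CIDEC were at -1.17, -1.45 and -1.07. HSD17B13, a droplet enzyme, was 1.79-fold higher in CM (95% interval, 1.76 to 1.81). The droplet list as a whole had 6 of 22 genes lower and 3 higher, yet its summed FPKM in CM was 1.21 times that in IM. Its share of the summed FPKM of all mRNA features, a total that was lower in CM, rose from 0.404% to 0.580%. FABP1, the fatty acid binding protein of liver and its most abundant member, was at 20302 in IM and 24823 in CM.

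Sterol synthesis and uptake was lower in 9 of 27 genes and higher in 1 (median -0.44). INSIG1, which holds back the sterol sensor and is itself a sterol-responsive gene, went from 1075 in IM to 439 in CM, and SC5D, near the end of cholesterol synthesis, from 459 in IM to 204 in CM. Bile acid genes were lower in 12 of 27 and higher in 3 (median -0.58). The median was -0.26 without the 2 members that the published results name and -0.22 with a minimum FPKM of 10, and 8 genes were lower with scaling to reads. CYP7A1, the rate-limiting enzyme of the classical route, was higher, at 937 in IM and 1531 in CM. CYP27A1 and CYP39A1, of the other routes, were lower, at 4674 in IM and 2191 in CM and 237 in IM and 99.3 in CM. SLC51B, a subunit of the basolateral exporter, went from 39.3 in IM to 220.5 in CM. Apolipoproteins were lower in 4 of 18, led by APOA4 at 3195 in IM and 1025 in CM and APOA5 at 5429.8 in IM and 2679 in CM.

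**Figure D4:**
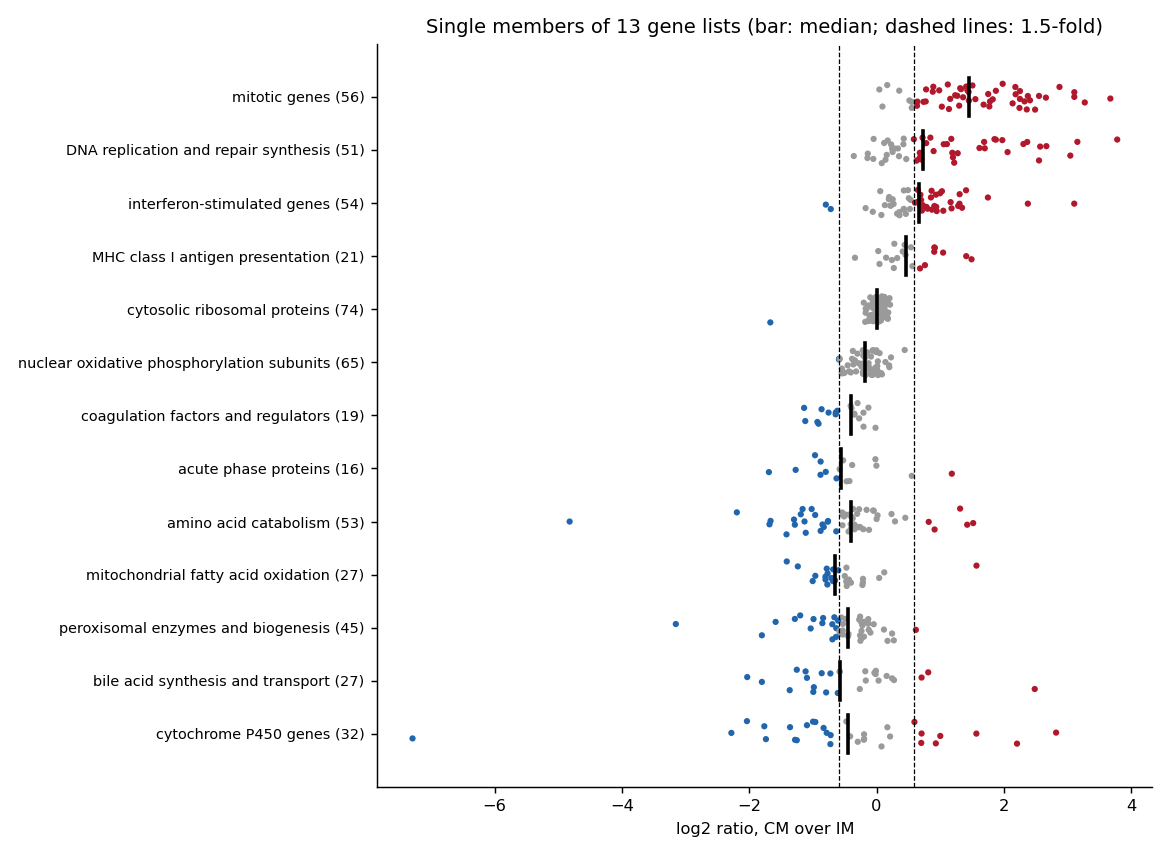
Each point is 1 member of the 13 lists named on the vertical axis (number of members in brackets), placed by its log2 ratio of CM to IM; the vertical bar is the list median and the dashed lines mark 1.5-fold, red being higher and blue lower in CM. Mitotic genes spread to the right with no member past 1.5-fold on the left, ribosomal proteins sit tightly at the middle (median 0.014), and cytochrome P450 genes spread to both sides.

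Several basic functions had few genes past 1.5-fold. Of 74 cytosolic ribosomal proteins only RPL3L was past 1.5-fold (-1.67), and the median was 0.014. None of 19 tRNA synthetases was past it, and 1 of 69 mitochondrial ribosomal proteins was, MRPS27 (-0.72). Nuclear subunits of oxidative phosphorylation had 2 of 65 genes lower, NDUFA3 and NDUFV1, and a median of -0.18. Features of the same level had a like median, as the value with the level decile subtracted was -0.027. The citrate cycle was lower in 2 of 19, with SUCLG1, a subunit of succinyl-CoA ligase, at -0.81. Yet 16 of the 19 lay below 0, with a median of -0.27, or -0.15 with the level decile subtracted. With scaling to reads this median was 0.012. EIF4EBP3, a repressor of cap-dependent translation, stood out among 56 translation factors, 10.8-fold lower in CM (95% interval, 9.31 to 12.7).

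Most lists of protein quality control were close to all features. Of 32 genes of the unfolded protein response 3 were lower and 1 higher. Beside CHAC1, ERN1, a sensor in the endoplasmic reticulum, was at -0.95, CREB3L3, a membrane-bound factor of liver, at -0.76, and TRIB3, a pseudokinase, at 1.51. Proteasome subunits were higher in 3 of 43, of which PSMB8 and PSMB9 are the immune forms. BAG3, a cochaperone of stressed cells, went from 909 in IM to 284 in CM, and FKBP5, a cochaperone of steroid receptors that their ligands induce, from 427 in IM to 106 in CM. Autophagy genes lay lower on the deposited scale, with 5 of 30 lower, 1 higher and a median of -0.28. With scaling to reads 1 was lower and 1 higher (median 0.0032). ULK1, the starting kinase of autophagy, was at 449 in IM and 177 in CM.

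Among genes of cell death, activators of apoptosis moved both ways. Of 37 BCL2 family genes and caspases 8 were higher and 2 lower (median 0.16). BAX, which opens the mitochondrial outer membrane, went from 68.9 in IM to 206 in CM, and BBC3, its activator PUMA, from 14.4 in IM to 42.9 in CM. BCL2L11, the activator BIM, went from 11.2 in IM to 2.11 in CM. Targets of p53 were split 6 to 6 among 27, with PHLDA3, an inhibitor of AKT, at 45.5 in IM and 203 in CM, CDKN1A, the cell cycle inhibitor p21, at 159 in IM and 287 in CM and SESN1, a stress sensor, at 299 in IM and 114 in CM. Redox genes were higher in 7 of 33 (21.2%) and lower in 4 (12.1%), against 11.5% and 12.2% of all features. SRXN1, which restores peroxiredoxins, was 6.48-fold higher in CM (95% interval, 5.52 to 7.66), MT1A, a metallothionein without recovered reads, 2.63-fold higher in CM, and TXNIP, an inhibitor of thioredoxin, 3.14-fold lower in CM (95% interval, 3.04 to 3.25).

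Genes known for a position along the liver lobule were also compared. Periportal genes were lower in 7 of 21 and higher in 1 (median -0.31), and pericentral genes higher in 8 of 22 and lower in 6 (median 0.21). The pericentral rises held GLUL, CYP2E1, RGN and the Wnt targets AXIN2 and RNF43, which were at 9.52 in IM and 16.7 in CM and 21.3 in IM and 39.9 in CM. SLC1A2, OAT and CYP27A1, also pericentral, were lower, so the zone did not move as 1 group. With scaling to reads the medians were -0.032 and 0.49.

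Structural genes and transporters differed by list. Cytoskeletal genes were higher in 8 of 38 and lower in none, led by STMN1, a microtubule destabilizer of dividing cells, at 61.1 in IM and 222 in CM, and LMNB1, a nuclear lamin, at 48.3 in IM and 104 in CM. Collagen and matrix genes were higher in 4 of 39 and lower in 2, at or under the shares of all features (11.5% and 12.2%). LAMB1 and LAMC1, of the basement membrane, were at 0.81 and 0.72, and MMP9, a collagenase of leukocytes, at -2.69. COL1A1 and COL3A1, the fibrillar collagens of scar tissue, had FPKM values of 82.6 in IM and 91.1 in CM and of 538 in IM and 519 in CM. Iron genes beside HAMP differed too, as TFRC, the transferrin receptor, rose from 144 in IM to 421 in CM and BMP6, which induces HAMP, fell from 362 in IM to 163 in CM. Of 224 solute carriers 40 (17.9%) were lower and 21 (9.38%) higher, against 12.2% and 11.5% of all features. SLC13A5, a citrate importer, and SLC25A25, a mitochondrial ATP carrier, were at -2.07 and -2.23, and SLC16A5, a monocarboxylate transporter, and SLC6A8, of creatine, at 1.95 and 1.36.

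The tissue label was checked against cell type markers. All 11 hepatocyte markers found were abundant, with a summed FPKM 0.770 times that of IM in CM. The ratio was 0.940 for macrophages, 1.32 for T and NK cells, 1.04 for stellate cells, 0.823 for endothelium and 0.979 for cholangiocytes. These ratios stand beside a summed FPKM of all mRNA features that was itself lower, at 8.13e+06 in IM and 6.82e+06 in CM. The largest part of the hepatocyte sum was ALB, at 690375 in IM and 476360 in CM. The largest part of the cholangiocyte sum was CDH1, at 2771 in IM and 2586 in CM. Of 9 cholangiocyte markers 3 were nevertheless higher and 0 lower. The 3 were EPCAM, at 36.6 in IM and 62.6 in CM, SOX9, at 3.45 in IM and 6.34 in CM, and CFTR, at 4.34 in IM and 7.31 in CM. The macrophage sum was carried by abundant members such as C1QA, at 4739 in IM and 4452 in CM, and CD5L, at 5504 in IM and 3902 in CM. Of its 15 markers MSR1 was higher and MARCO and LYZ were lower. MARCO, a scavenger receptor, went from 414 in IM to 82.8 in CM and LYZ, lysozyme, had a log2 ratio of -1.99. Their part in the fall of TNF and IL1B was not tested. Of the blood-borne types, the 3 erythroid markers above the FPKM minimum and several neutrophil markers were lower. By contrast, 3 of 18 T and NK cell markers were higher and 0 lower. Among 10 B and plasma cell markers 0 were higher and 1 lower, with a median log2 ratio of 0.23. HBB, a globin chain, had an FPKM of 17158 (IM), 3399.7 (CM) and 5151 (CMT), and the other erythroid members, ALAS2 and HBM, were at 77.5 in IM and 16.2 in CM and at 58.2 in IM and 7.47 in CM. Of 9 neutrophil markers 6 were lower, among them S100A8 at 41.3 in IM and 15.2 in CM and S100A12 at 63.8 in IM and 21.00 in CM, while CSF3R and CXCR2, which define the cell, were at 13.4 in IM and 17.4 in CM and 15.1 in IM and 17.1 in CM. The summed erythroid FPKM ranged from 3425 in CM to 17302 in IM, with AHSP at 0 in CM, and its part in the fall of TNF, IL1B and MMP9 was not tested. Adipocyte and pancreatic markers were low, with ADIPOQ, LEP and PNLIP at 0 in both libraries.

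**Figure D5:**
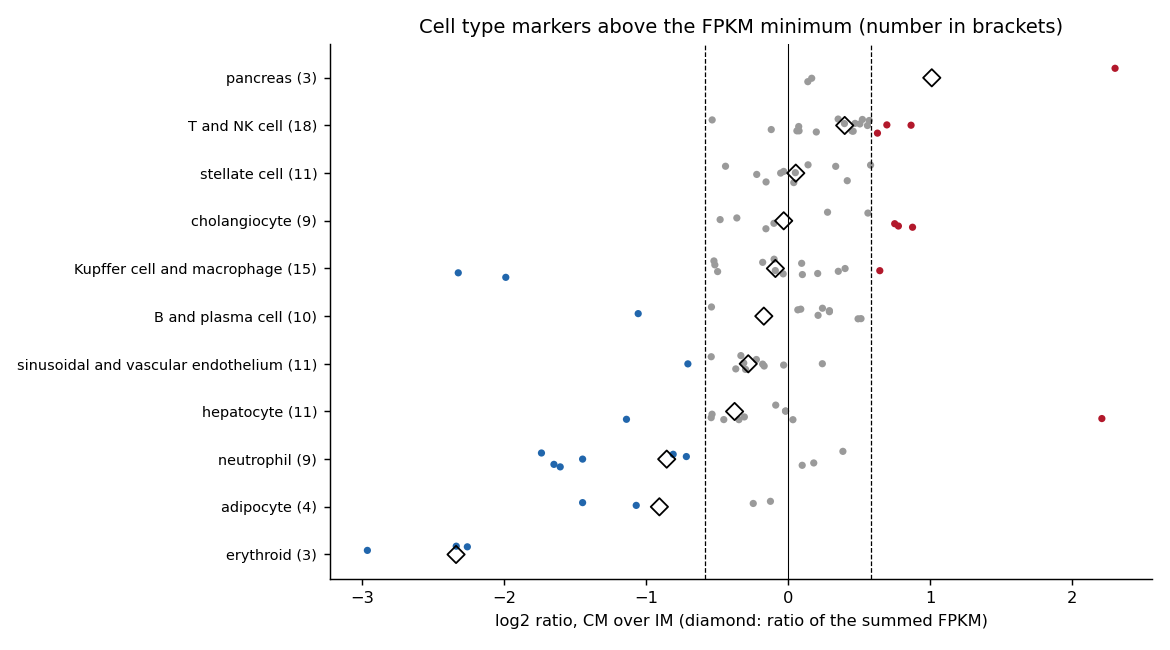
Log2 ratio of CM to IM of the markers of 11 cell types (points; number of markers above the FPKM minimum in brackets) and of their summed FPKM (open diamonds), with dashed lines at 1.5-fold. Erythroid markers lie far to the left, T and NK cell markers a little to the right of 0, and most other types near it.

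Features seen in 1 library only were few. An FPKM of at least 10 in IM with less than 1 in CM was met by 12 features, and the reverse by 15. GLYATL2, a glycine acyltransferase, had an FPKM of 69.9 (IM), 0.354 (CM) and 73.00 (CMT), and FFAR3, a receptor for short-chain fatty acids, one of 12.7 (IM), 0.265 (CM) and 13.4 (CMT). In the other direction IGSF23 was at 0.822 (IM), 65.2 (CM) and 1.01 (CMT) and DPEP1, a dipeptidase, at 0.545 (IM), 14.00 (CM) and 1.34 (CMT). For GLYATL2, FFAR3, IGSF23 and DPEP1 the CMT value lay on the side of IM. Each rested on 1 or 2 reads in the low library, so only the direction and the order of the change can be read.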

How the data were processed

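The data are 3 RNA-Seq libraries of pig liver, 1 per group (IM, CM, CMT). The authors checked reads with FastQC, aligned them with TopHat to a pig reference and deposited FPKM values per feature. The counting program and the annotation are not given in the sources used here. Features were joined by identifier, and 1559 of 19909 LOC identifiers were given a symbol through RefSeq (Sscrofa11.1, for names only). FPKM values were used without rescaling or a pseudocount, and no p-value was computed, since each group had 1 library. The values of a gene come in equal steps, each worth 1 read, which gave library divisors of 2.51 (IM) and 3.42 (CM) and, with the smallest transcript length of up to 10000 bases, the reads. A common factor of the reads can be lost, and both mates of a pair may be counted. The 95% exact binomial (Clopper-Pearson) intervals cover counting error only, and counting both mates would make them too narrow. The recovery was tested on simulated data.

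Members and lists were chosen with earlier results of these data known. Named genes were the 12 largest rises and falls among features that reached an FPKM of 10 in the higher library, at least 50 reads and a symbol, without genes that the published results name, of which 9804 qualified; up to 4 rises and 4 falls past 1.5-fold per list, with members chosen for their role; the 10 most abundant features; and symbol families with at least 8 members. Of 1382 listed symbols 1274 were found. Genes can stand in several lists, and some that are counted are not reported here by name. Alternatives were an FPKM minimum of 10, of 1 in all 3 libraries or none, a 2-fold threshold, a pseudocount of 1, other scalings and correction for length. Correction for level, and lists without genes of another list, were added after seeing the data. Python 3.11.15, numpy 2.4.6, pandas 2.3.3, scipy 1.17.1 and matplotlib 3.10.9 were used.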

Additional observations from a re-analysis of the deposited data

Results flagged for a closer look

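Features other than mRNA were not part of the comparison. Of 3003 such features that reached an FPKM of 1 in both libraries, 466 (15.5%) were at least 1.5-fold higher in CM and 730 (24.3%) lower, with a median log2 ratio of -0.11. They lie outside the main measurement, and more of them were lower than higher in CM.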

How the results depend on the processing

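The counts of 1848 higher and 1960 lower features moved by more than 1.5 times in at least 1 direction under 4 alternatives. They were 880 and 1228 with a minimum FPKM of 10, 777 and 788 at 2-fold, 3402 and 1132 with equal FPKM sums, and 3596 and 1053 with scaling to the recovered reads. The share of lower among changed features was 51.5% as reported, 58.3% with the minimum of 10, 25% with equal sums and 22.7% with scaling to reads. These last 2 alternatives add 0.24 or more to the log2 ratio of every feature. With no minimum, the minimum in all 3 libraries, a pseudocount of 1, median ratio or upper quartile scaling, the read interval, and length or level correction, the counts stayed within 1.5 times, between 1302 and 2300 higher and between 1428 and 2502 lower. No paired analysis was possible because each group had 1 library, and for the same reason no library could be left out. Depth limits the lowest features, where an FPKM of 1 stands for few reads.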

Other observations

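After the values had been seen, 5 further lists were drawn up, so their counts are descriptions only. Genes that glucocorticoids induce were lower in 10 of 12 members and higher in none, with a median log2 ratio of -1.16 against -0.019 for all features. TSC22D3, an anti-inflammatory leucine zipper protein, had an FPKM of 752 (IM), 282 (CM) and 630.4 (CMT). ZBTB16, a zinc finger factor, was 5.45-fold lower in CM (95% interval, 4.20 to 7.14), and KLF9, a Krüppel-like factor, 2.37-fold lower in CM (95% interval, 2.16 to 2.60). With scaling to reads 8 of the 12 were lower. DUSP1 and CEBPD, also known targets, were at 2021 (IM), 1294 (CM) and 926 (CMT) and at 1661 (IM), 1330.3 (CM) and 1627 (CMT).

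Genes induced by fasting and glucagon were lower in 12 of 15 and higher in 1 (median -1.23), TAT and ANGPTL4 being in both lists. FOXO1, a transcription factor that insulin holds out of the nucleus, had an FPKM of 265 (IM), 67.1 (CM) and 127 (CMT). SIK1, a kinase that cAMP induces, had one of 607 (IM), 151 (CM) and 399.8 (CMT). PPARGC-1, the coactivator PGC-1 alpha, was at 152 (IM), 60.8 (CM) and 55.6 (CMT), so CM and CMT were alike in it. Of 11 insulin-induced genes 5 were higher and 4 lower (median 0.35), with PPP1R3B at 0.74 and THRSP, a lipogenic factor, at -1.07. CM and CMT shared the high side for SCD and PPP1R3C, at 1506 and 219 in CMT.

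Of 18 targets of NRF2, the factor of the antioxidant response, 5 were higher and none lower (median 0.26). NQO1 and SRXN1 were far above the others. GCLC, the catalytic subunit of glutathione synthesis, was at 493 in IM and 780.4 in CM, while GCLM, its partner, was at 94.4 in IM and 82.6 in CM and HMOX1, heme oxygenase, at 961 in IM and 825 in CM. The 13 protein genes of the mitochondrial genome had a median of -0.48, with ND1 and CYTB past 1.5-fold. ND6, the gene on the other strand, was at 14764 in IM and 14768 in CM.

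By symbol alone, 203 families had at least 8 members. MCM genes had the highest median, 1.84 over 8 genes, followed by SLA (0.55), HAUS, of the spindle (0.43), and CDKN, the cell cycle inhibitors (0.39). Krüppel-like factors (KLF) had the lowest, -0.48 over 14 genes, of which 6 were lower and none higher. CYP and ADAMTS genes followed at -0.44 and -0.44. Phosphodiesterases (PDE) were lower in 7 of 21 and higher in 1.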
